A study of Arabidopsis thaliana with 4 samples.

Results

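The floral organ identity genes AP1, CAL, FUL, AP3, PI, AG, SEP1, SEP2, SEP3 and SEP4 of Arabidopsis thaliana encode MADS-box transcription factors. They were chosen by locus name from what is known of flower development, and every array probe whose transcript maps to one of the 10 loci was taken, which gave 15 probes of the 34185 that matched a locus. All 10 loci were among the 20464 genes tested, 5 with 1 probe and 5 with 2 probes. The choice was made with earlier results of this same comparison known, so the members' values are given as a description, with no p-value.

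Transcripts were compared on 4 Agilent 2-colour arrays. Each array held RNA of seedlings labelled vim1,2,3 in Cy5 beside RNA of wild-type Col seedlings in Cy3. Both genotypes were 14 days old, had grown on 1/2 B5 medium in days of 16 h light and 8 h dark, and were taken 6 h after lights on. Per the label, the mutant plants carry mutations in VIM1, VIM2 and VIM3 together. Their protein products recognise methylated cytosines through an SRA domain and keep CG methylation in place as cells divide. The submitters call the 4 pairs of samples independent biological samples. RNA of the mutant carried the same dye on all 4 arrays, so bias of a probe toward either dye is part of each ratio. Whole seedlings were the source, so fewer cells of a type and less RNA per cell cannot be told apart.

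The genotype check was mixed. VIM1 (AT1G57820) was at log2 ratios of -2.22, -2.46, -1.61 and -0.74 on arrays 1 to 4 (-1.76 ± 0.77, SD, n = 4). Its second probe was at -2.20, -2.56, -1.69 and -2.30, so both probes lay below 0 on 4 of 4 arrays. VIM2 (AT1G66050) was at -1.42, -1.31, 1.82 and 1.11 on arrays 1 to 4, and VIM3 (AT5G39550) at -1.06, -1.29, 1.61 and 0.25. Both lay above 0 on arrays 3 and 4, against their label. The members' means and calls, the medians of the lists and the means of many other named genes are therefore also given without arrays 3 and 4. Whether these probes lie within the disrupted stretch of each gene was not checked here. The pairs of arrays also stood apart in detection. In the RNA labelled vim1,2,3, 69.6% and 68.7% of probes were well above background on arrays 1 and 2, and 81.2% and 81.5% on arrays 3 and 4. In Col these were 75.9% and 77.9% on arrays 1 and 2, and 85.3% and 84.4% on arrays 3 and 4. AP3, PI and AG were well above background in the RNA labelled vim1,2,3 on arrays 3 and 4 alone, and the part of this split in their ratios was not tested.

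Flowers form when the floral signal FT, its partner FD and the transcription factor LFY switch on AP1 and its relatives at the flanks of the shoot tip. In the classical scheme AP1 specifies sepals and petals, AP3 and PI act as a pair in petals and stamens, and AG acts in stamens and carpels. The SEP proteins join the others in complexes on DNA and are needed for each of these identities. In vegetative tissue many of the homeotic genes are kept silent by Polycomb repression.

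The 10 genes had lower mean signals in the RNA labelled vim1,2,3 than in Col. Their mean log2 ratios ran between -2.20 for PI and -0.29 for SEP3, with a median of -1.37, beside a median of -0.05 over all genes tested. All 10 means lay below 0, as did 54.2% of the means over all genes tested. On all 4 arrays 8 members lay below 0, as did 22.5% of all genes tested. By the rule used to call genes across the whole table (limma, Benjamini-Hochberg adjusted p under 0.05 and at least 2-fold), 6 members were called lower and 0 higher, where 2.16% of all genes were called lower, 3.25% higher and 5.41% either way. The 6 were AP1, CAL, FUL, PI, SEP1 and SEP4. Nothing is read from these shares, since the members were chosen with this contrast known. The number of members called lower was 3, 4, 0 and 2 without arrays 1, 2, 3 and 4 in turn, and 0 without arrays 3 and 4. Over all genes tested 441 were called lower with the 4 arrays. That number was 223, 597, 33 and 58 without arrays 1, 2, 3 and 4 in turn, and 0 without arrays 3 and 4.

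**Figure D1:**
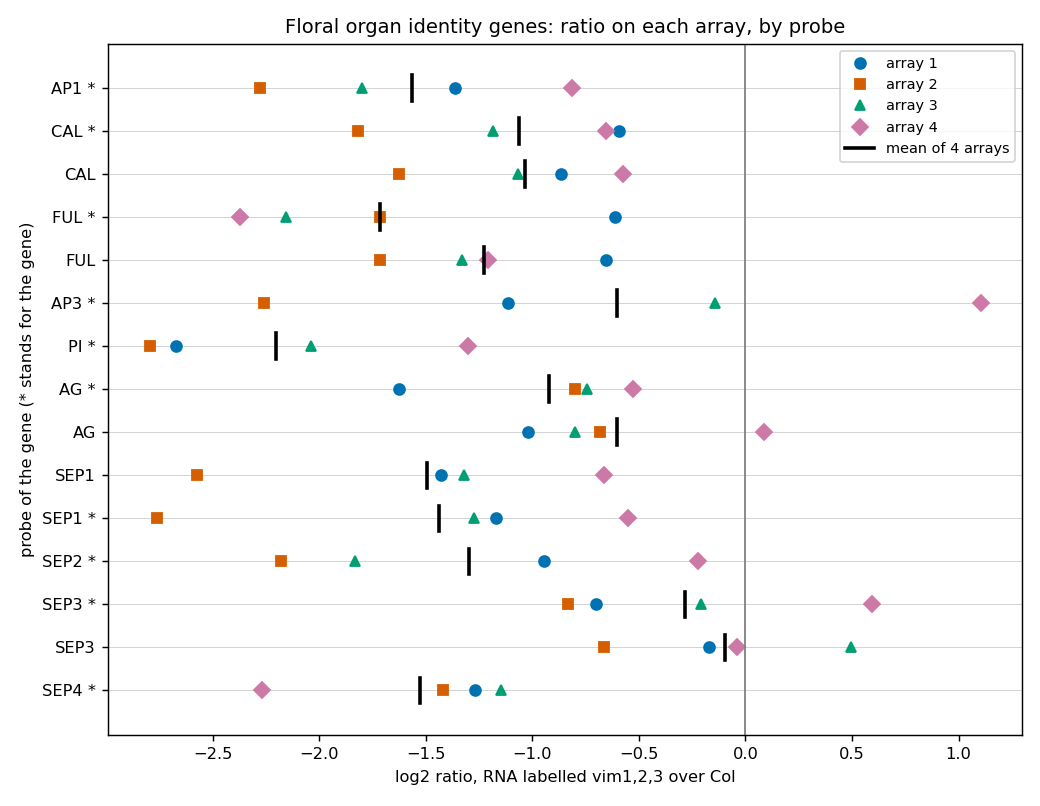
Log2 ratios between RNA labelled vim1,2,3 and Col (horizontal axis) are shown for each of the 15 member probes (rows), with a symbol for each of the 4 arrays, a bar at their mean and a star at the probe that stands for its gene. Most symbols lie left of 0, those of array 4 often furthest to the right. AP3, SEP3 and the dimmer AG probe have symbols on both sides of 0.

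Low signal limits these ratios. A probe entered the test where it was well above background in the same RNA on at least 3 of 4 arrays. Of the 10 members, 6 met this through Col alone and so entered on the strength of the RNA in which they were high. AP1, SEP3 and SEP4 were well above background in both RNAs on 4 of 4 arrays. For these 3 members a level was measured on both sides of every ratio.

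AP1 (AT1G69120) is the floral meristem identity gene that also acts in sepals and petals. Its log2 normalized signal was 8.57, 9.12, 8.42 and 8.29 in the RNA labelled vim1,2,3 on arrays 1 to 4, against 9.94, 11.40, 10.22 and 9.10 in Col. The Col sample of array 4 was the lowest of its group and lay just below the highest sample labelled vim1,2,3, so the groups overlapped by a narrow margin. The ratios on the arrays were -1.36, -2.28, -1.80 and -0.81. Their mean was -1.56 ± 0.62 (SD, n = 4), or 2.95-fold lower. The Col signals spread over 2.30 log2 units and those of the RNA labelled vim1,2,3 over 0.83, and the ratio was furthest below 0 on array 2, where Col was highest. AP1 was no longer called without array 1 or array 3.

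CAL (AT1G26310), a close relative of AP1 with an overlapping role in floral meristems, was dim. Neither of its probes was well above background in the RNA labelled vim1,2,3 on any array, while Col was so on 3 arrays with one probe and on 4 with the other. The probes were 2.09-fold and 2.05-fold lower. These folds compare means of normalized signals, 1 side of which was not well above background, and make no allowance for the spread. The measured means were -1.06 ± 0.57 and -1.03 ± 0.44 (SD, n = 4). The signals of the RNAs did not overlap for either probe, and the probes differed by at most 0.27 on an array. CAL lost its call when any array was left out, with the mean at -0.81 without array 2. The call was also lost with no filter on dim probes.

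FUL (AT5G60910) acts with AP1 and CAL in the floral transition and later in fruit and leaves. With its brighter probe the log2 normalized signal was 9.23, 9.14, 7.07 and 6.87 in the RNA labelled vim1,2,3, against 9.84, 10.86, 9.22 and 9.24 in Col. The samples labelled vim1,2,3 fell into a higher pair on arrays 1 and 2 and a lower pair on arrays 3 and 4, where the probe was not well above background. The highest of them just passed the lowest Col sample. The ratios were -0.61, -1.71, -2.16 and -2.37, with a mean of -1.71 ± 0.78 (SD, n = 4). The other FUL probe gave -0.66, -1.71, -1.33 and -1.21, was not well above background in that RNA on any array and averaged 2.34-fold lower. The probes lay on the same side of 0 on 4 of 4 arrays but parted by up to 1.17 on array 4. FUL was at -1.16 without arrays 3 and 4, and its call was lost without array 3 or array 4.

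The B-class partners PI and AP3 differed from each other. PI (AT5G20240) had ratios of -2.67, -2.79, -2.04 and -1.30 on arrays 1 to 4 (-2.20 ± 0.69, SD, n = 4). Its log2 normalized signal was 7.63, 8.13, 8.62 and 8.24 in the RNA labelled vim1,2,3, against 10.30, 10.92, 10.66 and 9.53 in Col. The groups did not overlap, and PI was well above background on arrays 3 and 4 in the RNA labelled vim1,2,3 and on 4 arrays in Col. Its ratios furthest below 0, on arrays 1 and 2, were thus set against a level not well above background, and the scanner's processed signals gave -5.14 and -3.92 there. Its call was lost without array 3.

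AP3 (AT3G54340), which encodes the protein that pairs with PI, had ratios of -1.12, -2.26, -0.14 and 1.10 on arrays 1 to 4. The sign turned on array 4, and the mean of -0.60 ± 1.43 (SD, n = 4) was smaller than its spread. Its log2 normalized signal was 7.07, 7.21, 8.28 and 8.38 in the RNA labelled vim1,2,3, against 8.19, 9.47, 8.42 and 7.28 in Col. In the RNA labelled vim1,2,3 it was above background on arrays 3 and 4 alone, the arrays where the ratio was near or above 0. The AP3 mean was -1.69 without arrays 3 and 4 and -0.05 without array 2.

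AG (AT4G18960), the C-class gene of stamens and carpels, was lower on 4 of 4 arrays with its brighter probe. The ratios were -1.63, -0.80, -0.74 and -0.53 (-0.92 ± 0.48, SD, n = 4), short of 2-fold, so AG was not called. The log2 normalized signal was 7.88, 8.35, 7.49 and 7.59 in the RNA labelled vim1,2,3, against 9.51, 9.15, 8.24 and 8.12 in Col. The groups overlapped, with the Col samples of arrays 3 and 4 below the highest sample labelled vim1,2,3. The second AG probe averaged -0.60 ± 0.48 and was above 0 on array 4, at 0.09.

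**Figure D2:**
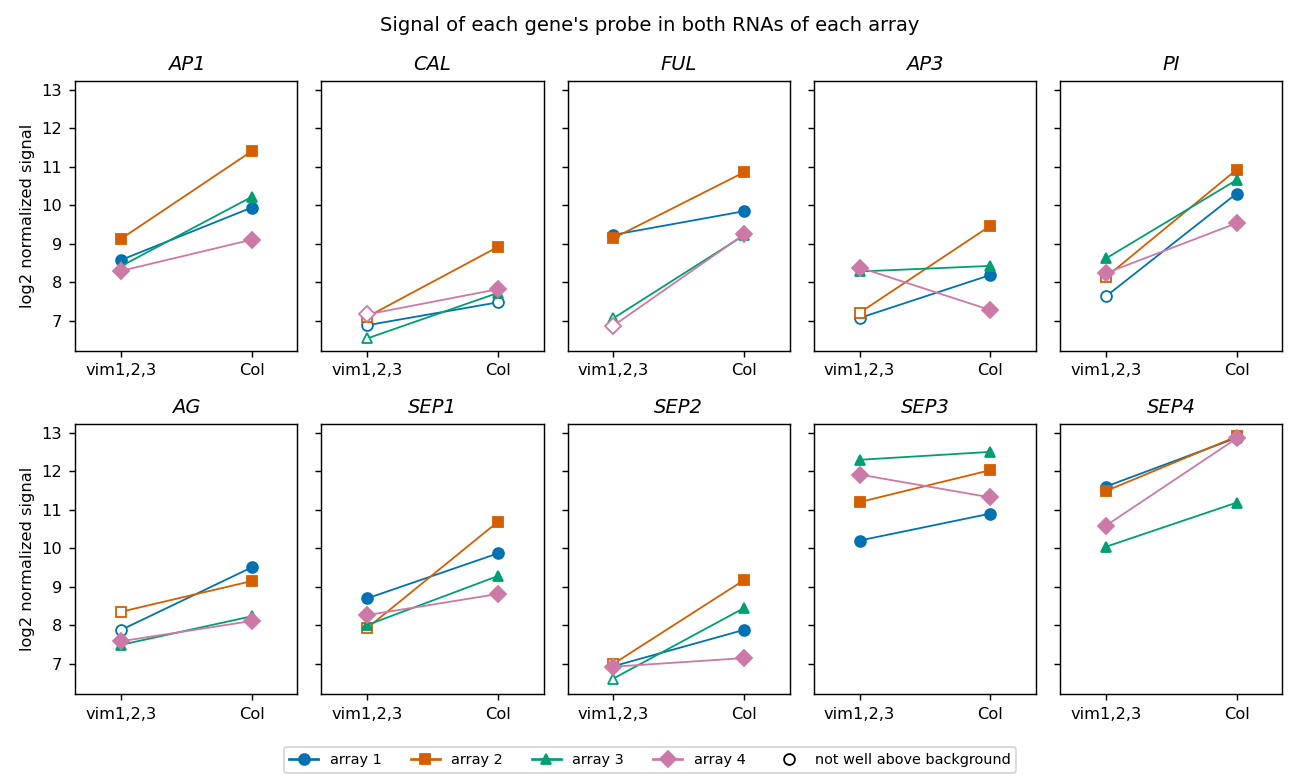
The log2 normalized signal (vertical axis) of the probe that stands for each of the 10 genes is plotted for RNA labelled vim1,2,3 at the left and Col at the right of each panel, with a line joining both RNAs of an array and open symbols where the probe was not well above background. The 4 lines of CAL, PI, SEP1 and SEP2 run between groups that do not overlap, while a line of AP3 and of SEP3 slopes down toward Col on array 4.

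SEP1 and SEP2 are closely related genes with shared roles as partners of the other floral MADS-box proteins. SEP1 (AT5G15800) had ratios of -1.17, -2.76, -1.27 and -0.55 with its brighter probe (-1.44 ± 0.94, SD, n = 4, 2.71-fold lower). The other SEP1 probe, designed on another transcript entry, averaged -1.50 ± 0.79 and differed from it by at most 0.26 on an array. The 2 probes thus gave nearly the same values on each array. With the brighter probe the log2 normalized signal was 8.70, 7.93, 8.01 and 8.27 in the RNA labelled vim1,2,3, against 9.87, 10.69, 9.28 and 8.82 in Col, and the groups did not overlap. SEP1 was only just past the threshold and lost its call when any array was left out, with the mean at -0.997 without array 2. The call was also lost with no filter on dim probes, with the scanner's processed signals and with the series matrix.

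SEP2 (AT3G02310) had ratios of -0.95, -2.18, -1.83 and -0.22 (-1.29 ± 0.88, SD, n = 4) and was not called. Its log2 normalized signal was 6.94, 7.00, 6.62 and 6.93 in the RNA labelled vim1,2,3, against 7.89, 9.18, 8.45 and 7.15 in Col. The signals of the RNA labelled vim1,2,3 were above background on array 4 alone. On arrays 1 to 3 the SEP2 ratio thus has a measured level on the Col side only. On array 4, where both RNAs were above background, its sign depended on the processing. The ratio of -0.22 there became 0.87 in the scanner's own output and 0.83 in the authors' matrix. That SEP2 lay below 0 on array 4, with no overlap of its signals, therefore holds for the normalization used here. In all, 4 members had signals that did not overlap and were lower in the RNA labelled vim1,2,3 (CAL, PI, SEP1 and SEP2), as had 7.65% of all genes tested.

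SEP3 (AT1G24260), the partner found in most floral MADS-box complexes, was the member nearest to no difference. Its log2 normalized signal was 10.20, 11.20, 12.30 and 11.92 in the RNA labelled vim1,2,3, against 10.90, 12.03, 12.51 and 11.32 in Col. The groups overlapped over most of their range. The ratios were -0.70, -0.83, -0.21 and 0.59 (-0.29 ± 0.64, SD, n = 4), and the other SEP3 probe, which is dim, averaged -0.09 ± 0.48. The SEP3 mean was -0.76 without arrays 3 and 4.

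SEP4 (AT2G03710), which acts with the other SEP genes and is also active outside flowers, had its lowest ratio on array 4. The log2 normalized signal was 11.60, 11.49, 10.04 and 10.59 in the RNA labelled vim1,2,3, against 12.87, 12.91, 11.19 and 12.86 in Col. The Col sample of array 3 stood well below the other Col samples, and the groups overlapped through it. The ratios were -1.27, -1.42, -1.15 and -2.27 (-1.52 ± 0.51, SD, n = 4, 2.88-fold lower). With both RNAs above background on 4 arrays, SEP4 was among the members whose ratio changed least with other processing, between -1.65 and -1.28. It was not called without array 3 or array 4.

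The arrays did not give the same picture. The median ratio of the 10 members was -1.14, -1.997, -1.23 and -0.60 on arrays 1 to 4, while the median over all genes tested lay between -0.05 and -0.04 on each. Array 2 held the lowest ratio of 7 members, which was so for 32.6% of all genes tested. Array 4 held the highest ratio of 7 members, beside 26.5% of all genes tested, and 2 members, AP3 and SEP3, were above 0 there. FUL and SEP4 ran the other way, with their lowest ratio on array 4. For 11 of the 15 member probes the Col signals spread more widely than those of the RNA labelled vim1,2,3, as did 56.2% of all probes tested. Most member probes were near background in the RNA labelled vim1,2,3, and the part of this in the spread was not tested.

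Without arrays 3 and 4, on which VIM2 and VIM3 went against the label, all 10 means remained below 0. PI was then at -2.73, SEP1 at -1.97, AP1 at -1.82 and SEP2 at -1.56. CAL and AG were both at -1.21, and SEP4 was at -1.34. These means rest on 2 arrays, and 0 members were called. In that fit 0 of the 20399 genes tested were called lower, so nothing about the members is read from this count.

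Genes that act before the members were next compared. Of 19 activators of the floral transition 18 were tested, and limma called 0 of them. Their unadjusted p was under 0.05 for 1 gene above 0 and for 2 below. The share of all genes tested with such a p is not given here. Nothing is therefore read from these counts, in this list or in those that follow. SPL15 and SPL5, targets of miR156 that promote flowering with age, had the smallest p. SPL15 (AT3G57920) was at -0.71 ± 0.32 (SD, n = 4, limma adjusted p = 0.0491), short of 2-fold, and SPL5 (AT3G15270) at -0.54 ± 0.12 (adjusted p = 0.0551). Both were below 0 on 4 of 4 arrays. The following were named after their values were seen. LFY (AT5G61850), a direct activator of AP1, was at -0.13 ± 0.55 and above background in the RNA labelled vim1,2,3 on 1 array and in Col on 3. The mobile flowering signal FT was at -0.17 ± 0.77. Its other probe, too dim to be tested, averaged 0.47 ± 0.85. SOC1, a MADS-box integrator of flowering signals, was at 0.18 ± 0.45 with the RNA labelled vim1,2,3 saturated on 2 arrays.

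Of 19 repressors of flowering or of the homeotic genes 18 were tested, and 1 rose. FWA (AT4G25530), a homeodomain gene that delays flowering when it is active outside the seed, had ratios of 4.56, 4.45, 4.82 and 4.70 (4.63 ± 0.16, SD, n = 4, limma adjusted p = 4.92e-05). FWA was higher on 4 of 4 arrays and kept its call without each array and without arrays 3 and 4. None of the others was called. At an unadjusted p under 0.05, 3 of the list, FWA, TEM1 and TEM2, were above 0 and 6 below. TEM1 and TEM2 encode repressors of FT and were named after their values were seen. TEM1 was at 1.47 ± 1.21 (SD, n = 4, limma adjusted p = 0.0757) and TEM2 at 1.22 ± 1.14 (adjusted p = 0.101), both with the RNA labelled vim1,2,3 saturated on 2 arrays. TEM1 was above 0 on 4 of 4 arrays and TEM2 on 3. The other TEM2 probes, which were not saturated, averaged 2.10 ± 0.83 and 2.07 ± 0.86 and lay above 0 on 4 of 4 arrays. With the mean of all tested probes, 2 of the list were called higher. FLC, also named after its values were seen, had a mean below 0 with each of its probes. The probe that stood for it was at -0.17 ± 0.47. The others averaged -1.43 ± 0.44 and -0.72 ± 0.24 and lay below 0 on 4 of 4 arrays. Neither of these was well above background in the RNA labelled vim1,2,3 on any array. CLF and SWN, the Polycomb methyltransferases that act on AG and other homeotic genes, were named after their values were seen, at -0.72 ± 0.22 and -0.64 ± 0.22 (SD, n = 4, limma adjusted p = 0.0385 and 0.0473), both short of 2-fold and below 0 on 4 of 4 arrays.

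Related MADS-box genes outside the 10 were also read. Of 8 listed 5 were tested and limma called 0 of them, with 0 above 0 and 1 below 0 at an unadjusted p under 0.05. AGL6 (AT2G45650), the relative nearest to the SEP genes, was at -0.81 ± 0.65 (SD, n = 4, limma adjusted p = 0.0894), with Col above background on 3 arrays and the RNA labelled vim1,2,3 on 1. STK (AT4G09960), the ovule identity gene, was at 0.26 ± 0.61 (adjusted p = 0.501). The median of the 5 was 0.09. Whether this differs from the members was not tested.

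Of 20 genes that act with or after the homeotic genes in flowers 17 were tested, 1 fell and 0 rose. GNL (AT4G26150), a GATA factor gene known to be repressed by AP3 and PI in flowers and active in green tissue, had ratios of -0.58, -2.25, -0.78 and -1.40 (-1.25 ± 0.75, SD, n = 4, 2.38-fold, limma adjusted p = 0.045). GNL was below 0 on 4 of 4 arrays, and its call was lost when any array was left out (adjusted p of 0.0728, 0.137 and 0.148 without arrays 1, 3 and 4, and a change short of 2-fold without array 2). At an unadjusted p under 0.05, 2 of the list were above 0 and 6 below. The list's median was -0.25.

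**Figure D3:**
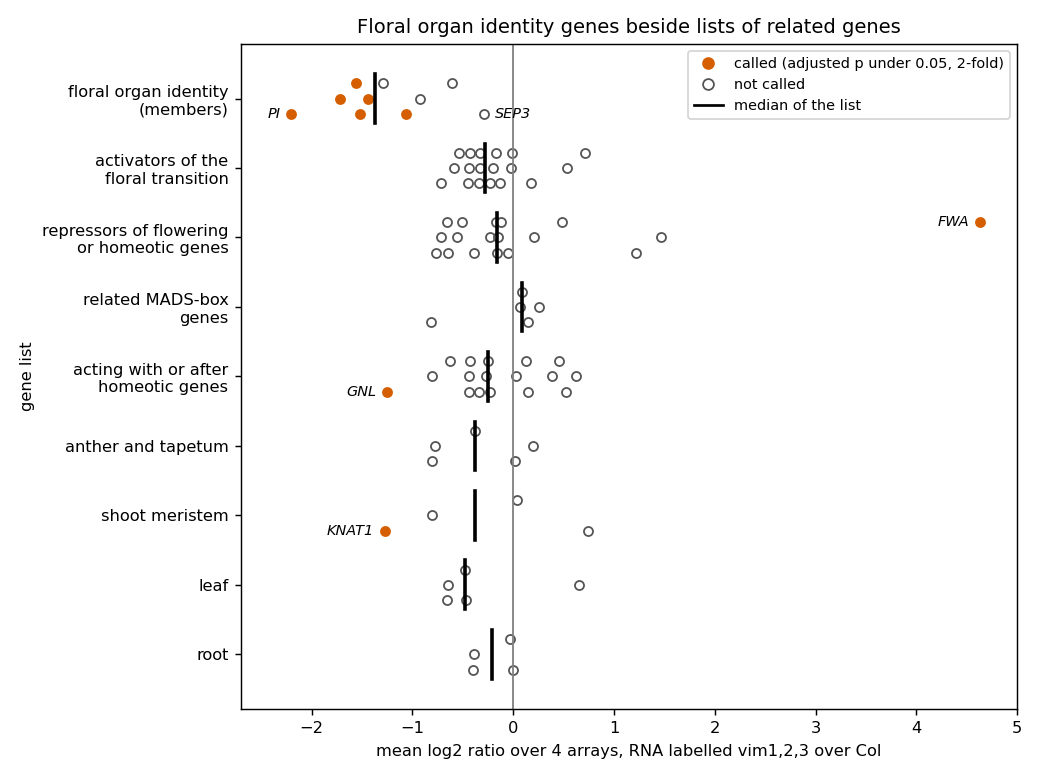
Each point is the mean log2 ratio over 4 arrays (horizontal axis, RNA labelled vim1,2,3 over Col) of a tested gene, in rows for the 10 members, the 4 lists of related genes and the 4 lists of organ markers, with filled points for called genes and a bar at each list's median. The members' median of -1.37 lies below that of each other list, and FWA at 4.63 is the called gene on the right.

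Markers of organs and tissues were read in the same arrays. Of 7 anther and tapetum genes, 3 were well above background on 4 of 4 arrays in the RNA labelled vim1,2,3 and 5 in Col. The regulators TDF1 and DYT1 were above background on 0 arrays in the RNA labelled vim1,2,3 and on 1 in Col. The summed signal of the anther list ranged between 4039 and 6702 in the RNA labelled vim1,2,3 and between 5579 and 10381 in Col. None of the 5 tested anther genes was called by limma (0 above and 2 below 0 at an unadjusted p under 0.05), with TPD1 at -0.80 ± 0.51 (adjusted p = 0.0637) and AMS at -0.77 ± 0.48 (adjusted p = 0.064). The others tested were MS1 at 0.20 ± 0.42, EMS1 at 0.01 ± 0.65 and A9 at -0.38 ± 1.05.

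Of the shoot meristem markers 4 were tested and limma called 1, which was lower (1 above and 2 below 0 at an unadjusted p under 0.05). KNAT1 (AT4G08150), a homeobox gene of the shoot tip and stem, had ratios of -0.86, -1.61, -2.08 and -0.53 (-1.27 ± 0.70, SD, n = 4, 2.41-fold, limma adjusted p = 0.0399), and its second probe averaged -1.19. The KNAT1 call was lost when any array was left out (adjusted p of 0.0689 to 0.148). The other tested markers of this list were mixed. STM was at -0.81 ± 0.42 and below 0 on 4 of 4 arrays. CLV3 was at 0.74 ± 0.51 and above 0 on 4 of 4 arrays, and CLV1 was at 0.04 ± 0.08. The summed signal of this list was 8345 to 13139 in the RNA labelled vim1,2,3 and 9588 to 16433 in Col, while WUS, which marks the stem cell centre, was not above background in either RNA. All 5 leaf markers were well above background on 4 of 4 arrays in both RNAs, and limma called 0 of them (0 above and 4 below 0 at an unadjusted p under 0.05). The summed leaf signal was 211385 to 222817 in the RNA labelled vim1,2,3 and 263639 to 344649 in Col, but the probes that stood for GAPA (-0.66 ± 0.04), RBCS1A (-0.64 ± 0.12), LHCB5 (-0.47 ± 0.40) and RCA (-0.48 ± 0.38), the 4 below 0, were saturated on 4 arrays in the RNA labelled vim1,2,3. PSAD1, whose probe was not saturated, was at 0.65 ± 1.21. The other GAPA probes, which were not saturated, averaged 0.13 to 0.18, so the leaf values carry no settled direction. The summed root signal was 7456 to 15785 in the RNA labelled vim1,2,3 and 10972 to 27943 in Col, and limma called 0 of the 4 root genes tested, with 0 at an unadjusted p under 0.05. The part of organ makeup in the members' lower ratios was not tested.

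The same lists were read without arrays 3 and 4. The median was then -0.15 for activators, -0.18 for repressors, -0.07 for related MADS-box genes and -0.29 for genes acting with or after the members. It was -0.52 for anther, -0.34 for shoot meristem, -0.28 for leaf and -0.44 for root markers. Most named genes kept their direction. TEM1 was at 2.42, TEM2 at 2.07, SPL15 at -0.72, SPL5 at -0.49, CLF at -0.86 and SWN at -0.47. FT was at -0.83 and SOC1 at 0.46, while LFY turned to 0.06. AGL6 was at -0.95, STK at 0.05, AMS at -1.14 and TPD1 at -0.52. FWA was at 4.51, GNL at -1.41 and KNAT1 at -1.23.

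Genes whose ratios were most like those of AP1 and FUL were found by the root mean square difference over the 4 arrays. AT5G37940 (0.19), AT5G47610 (0.21) and MIPS2 (AT2G22240, 0.24), an enzyme of inositol synthesis, were nearest to AP1. AT1G19500 (0.15), AT4G16015 (0.20) and AAE12 (AT1G65890, 0.28) were nearest to FUL. None of the 6 is a member, and CAL, the closest relative of AP1, is not among them. With 4 arrays the measure describes likeness in these samples only.

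Other processing moved the dim members most. With the scanner's processed signals, PI was at -3.33, CAL at -2.28, SEP2 at -2.40, FUL at -2.41, AG at -1.69 and AP3 at -1.38, each over 1.5 times the fold given above, while SEP3 was at -0.42 and SEP4 at -1.61. The authors' series matrix left blank many of the dim values. It gave AP1, SEP3 and SEP4 on 4 arrays, SEP1 on 3, FUL, AP3, PI and AG on 2, SEP2 on 1 and CAL on none. From its values on arrays 3 and 4, AP3 was above 0, at 0.58.

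**Figure D4:**
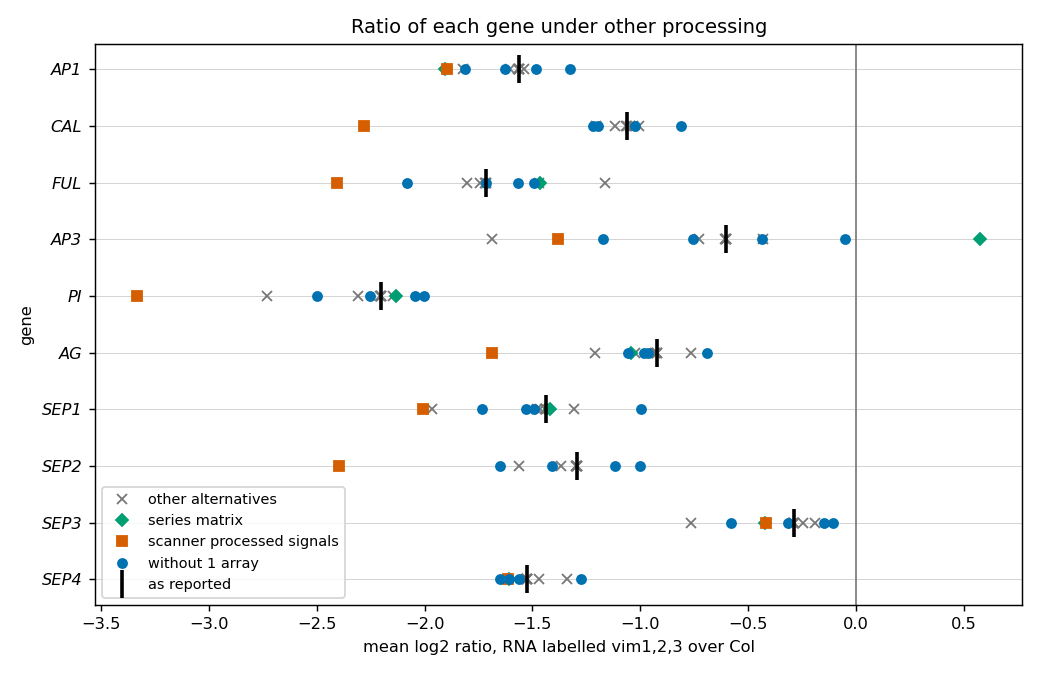
The mean log2 ratio (horizontal axis) of each of the 10 genes (rows) is shown as reported by a bar, and by symbols without 1 array, with the scanner's processed signals, from the series matrix and under the other alternatives. PI stays between -3.33 and -2.003 and SEP4 between -1.65 and -1.28, while AP3 spans -1.69 to 0.58.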

How the data were processed

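RNA of vim1,2,3 and Col seedlings was hybridised on 4 2-colour arrays, read as ratios of RNA labelled vim1,2,3 (Cy5) over Col (Cy3). Per the file headers, images were quantified with Agilent Feature Extraction 10.7.3.1, giving a median intensity per spot and an area around it. The deposited processed intensity was background-subtracted, detrended and dye-normalized, per the file headers, and the deposited scanner ratio is its log10. Values in the deposited series matrix are a log2 ratio whose direction and scale matched the scanner's (correlations across probes of 0.998 to 0.999). Its medians on arrays 1 to 4 were -0.09, 0.01, -0.04 and -0.03. How that matrix was normalized and centred stays unknown.

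Median intensities were corrected with normexp (offset 50) and loess-normalized within arrays in limma 3.58.1 under R 4.3.3 with control spots at weight 0. Control spots and scanner outliers were then left out. Signals per RNA were taken after Aquantile scaling. Probes were named by transcript accession through RefSeq's TAIR10.1 gene list, which held 34185 of 43603. The array design names another build, so no coordinates are given. The brightest tested probe over both channels stood for a gene. The test was lmFit with an intercept and eBayes, adjusted over 20464 genes, checked on simulated data. All 4 arrays shared a slide and a scan, so no batch could be compared. The number of arrays limits the precision. The members and lists were chosen with earlier results of these data known. The rule for named genes took every member, the called genes of each list, or the 2 smallest p where none was called, and the 3 genes most like AP1 and FUL. Sequences were not used here, so the planned count of promoter motifs was not run.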

Additional observations from a re-analysis of the deposited data

Results flagged for a closer look

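Of 31 sets of 4 ratios examined (the member probes, the VIM genes and the genes named from the lists), 1 had an array far from the other 3. SHR, a root patterning gene that is no member, was at -2.29 on array 4, against 0.06 to 0.39 on the others. Chance gives about 1 such set in 20.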

How the results depend on the processing

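The fit was paired by design, because each ratio sets both RNAs of an array against each other. The labels hold 1 group of arrays, so no further pairing was possible. The direction of each member's mean held under all alternatives run, except that AP3 was at 0.58 with the series matrix. That matrix holds AP3 on arrays 3 and 4 alone and has no value of CAL. It holds SEP2 on array 4 alone, above 0 at 0.83, and this single value was not fitted. Members called lower numbered 6, but 5 with processed signals, 4 with no filter on dim probes and 3 with the series matrix. They numbered 7 with no background subtraction and with array weights. The number was 0 to 4 when 1 array was left out and 0 without arrays 3 and 4, an alternative chosen after seeing the data. Over all genes 666 were called higher and 441 lower. Without 1 array these were 182 to 987 and 33 to 597, and without arrays 3 and 4 they were 53 and 0. The lower count was 813 with processed signals and 674 with the series matrix, so that rises made up 42.2% and 47.5% of calls, against 60.2%. Of the genes acting with or after the homeotic genes, 1 was called lower, but 2 with processed signals, 0 with no background subtraction, no filter on dim probes, 1 array left out or without arrays 3 and 4. Of the repressors, 1 was called lower with processed signals and with the filter at 4 arrays, against 0, and 2 higher with the mean of all probes, against 1. With the filter at 4 arrays the FLC probe at -1.43 stood for FLC, as its only probe above background in Col on 4 arrays. Fits on 2 or 3 arrays have fewer samples. Levels near background limit CAL, SEP2, AP3, PI, AG and FUL.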
